A study of Mus musculus with 2 samples.

Results

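Laminins, nidogens and perlecan are the non-collagen backbone of the basement membrane, and 10 of their genes were followed by name among the 32285 features of both libraries: the laminin alpha chains Lama1, Lama2, Lama4 and Lama5, the beta chains Lamb1 and Lamb2, the gamma chain Lamc1, the nidogens Nid1 and Nid2, and Hspg2, which encodes perlecan. All 10 had UMIs in both libraries. The Null library held Fgf9 -/- pancreas cells pooled from 3 pancreata of 3 litters, in which a LacZ cassette disrupts both copies of Fgf9. The Control library held cells of 8 pancreata of 3 litters whose genotypes were Fgf9 +/+ and Fgf9 +/-, so it mixes wild-type and heterozygous embryos. All embryos were at embryonic day 14.5 on a C57BL/6J background. Cells were freed with TrypLE, sorted as DAPI-negative, which removes dead cells, and profiled with the 10x Genomics 3' assay. It captures RNA in droplets and marks every molecule with a unique molecular identifier (UMI), so UMIs count molecules.

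A laminin is a cross-shaped trimer of an alpha, a beta and a gamma chain, assembled inside the cell that secretes it. The alpha chain carries most of the sites that bind cell-surface receptors, so the alpha chain a tissue makes sets which laminin its cells meet. Nidogens bind the gamma chain and collagen IV and so tie both networks together, and perlecan, a heparan sulfate proteoglycan, binds the network and holds growth factors in it. In the pancreas a basement membrane lies under the epithelium, around each blood vessel and beneath the mesothelium that covers the organ, and mesenchyme and endothelium are known to supply part of it.

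The Null library held 16708 barcodes with 271129120 UMIs, and the Control library 30209 barcodes with 339959625 UMIs. After filters on UMIs, genes and mitochondrial RNA and removal of 576 Null and 1302 Control barcodes called as doublets, 8828 Null cells (median 24167 UMIs) and 25877 Control cells (median 4056 UMIs) were kept. Cells were clustered without the 10 genes or any other basement membrane gene, and clusters were named from marker genes: 7259 Null and 12483 Control cells fell in a class, 189 Null and 364 Control epithelial cells took no subclass, and 1380 Null and 13030 Control barcodes stayed unnamed. The classes, marker-based and so "mesenchymal-like", "ductal-like" and so on, are called by the plain name from here on. The cluster named mural in the plots, led by Actg2 and Myh11, went against its name in Null. Its 148 Null cells had 1732.5 CPM of the mural markers, with Higd1b at 0, and 9892.3 CPM of the mesenchymal markers, while its 43 Control cells had 10537 CPM of mural and 2718.9 CPM of mesenchymal markers. It is called the Actg2 and Myh11 cluster here. Mesothelial cells also had more mesenchymal than mesothelial marker CPM, 9148.3 against 1609.5 in Null and 3095.6 against 1635.8 in Control. Their mesothelial sum was much the same in both libraries, and the plain name is kept with this limit. Fgf9 stood at 1.71 CPM, UMIs per 1000000 UMIs, in the Null library and 8.89 CPM in the Control library. Where in Fgf9 the cassette sits is not stated, and a 3' tag outside the deleted stretch would check nothing. Xist, made by female cells, stood at 0.289 CPM in the Null and 378.2 CPM in the Control library, so female cells were nearly absent from the Null library, and sex and genotype cannot be told apart here. The libraries shared 180 barcode sequences, carried by 84 kept Null and 152 kept Control cells. With 1 library per group no difference has a replicate check and none was tested; every interval below is an exact 95% interval for counting error only. Free RNA, estimated from acinar enzyme UMIs, made up 5.11 to 8.26% of the UMIs of most Null classes and 16.4 to 22.4% of most Control classes, with the neural or glial class highest at 20.1% in Null and 34.0% in Control. Acinar cells, judged from collagen UMIs, had 2.24% in Null and 5.53% in Control. Leukocytes, which are not known as builders of basement membrane, are given as a comparison level.

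Epithelial classes held most of the captured UMIs of these genes, though they held a still larger share of all UMIs in named classes. Of the 61395 Null UMIs and 58213 Control UMIs of the 10 genes in named classes, ductal or trunk cells, the branching progenitor and duct epithelium, held 38.7% in Null and 37.8% in Control. Acinar cells held 26.8% in Null and 22.2% in Control, mesenchymal cells 11.6% in Null and 18.0% in Control, mesothelial cells 7.52% in Null and 9.67% in Control, and endothelial cells 6.28% in Null and 3.80% in Control. Relative to all UMIs of named classes, acinar cells were poor in them, and ductal or trunk and endothelial cells rich. Acinar cells gave 53.3% of all Null and 44.1% of all Control UMIs. Ductal or trunk cells gave 21.3% of all Null and 25.3% of all Control UMIs, and endothelial cells only 1.45% of Null and 1.34% of Control UMIs. Endocrine cells were also poor. They held 2.54% of the Null and 2.94% of the Control UMIs of the genes, and 7.78% of all Null and 6.96% of all Control UMIs. These shares depend on how many cells of each class were freed and captured, and mesenchymal cells were 8.49% of named Null and 18.3% of named Control cells.

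**Figure D1:**
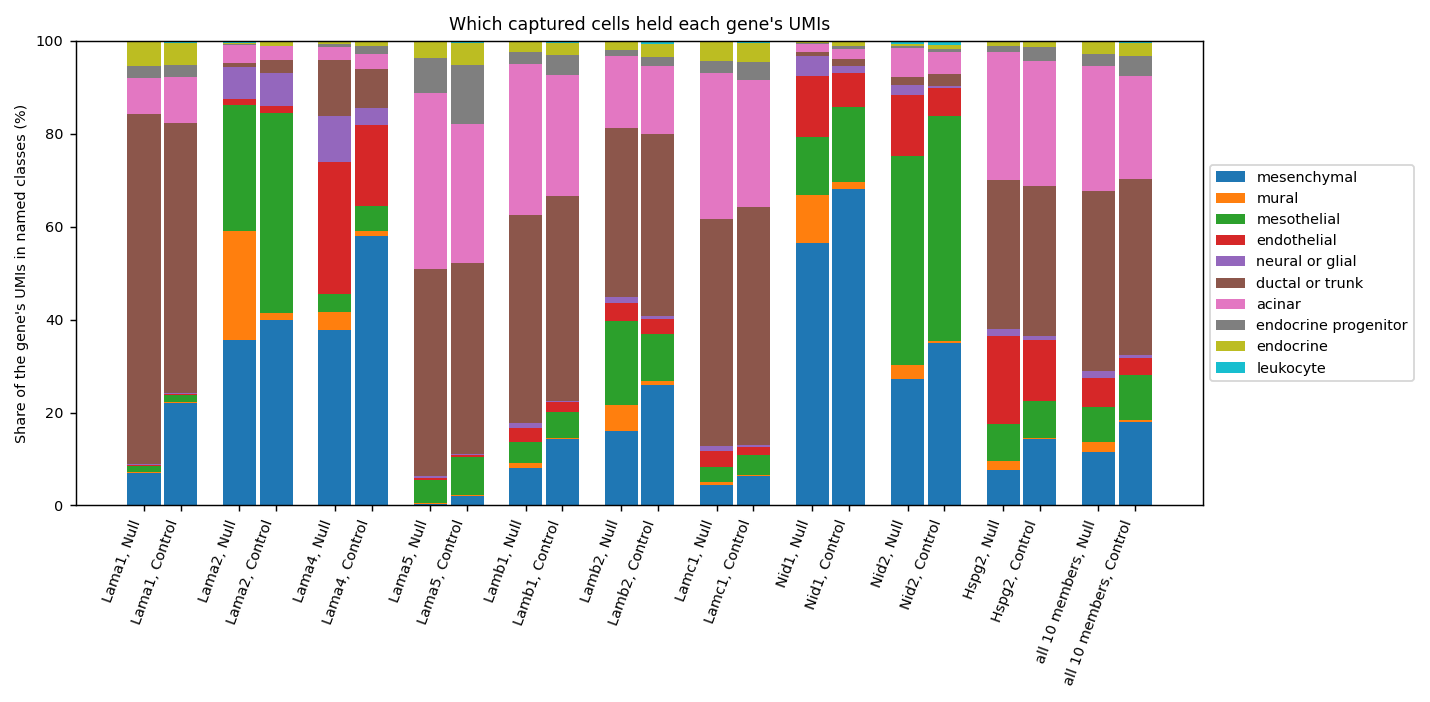
Share of each gene's UMIs (vertical axis, percent of its UMIs in named classes) held by each cell class, with a Null and a Control bar per gene and a last pair for all 10 genes summed. Ductal or trunk and acinar cells fill most of the Lama5, Lamb1 and Lamc1 bars, mesenchymal cells 56.4% of the Null and 68.1% of the Control Nid1 bar, and mesothelial cells 45.1% of the Null and 48.5% of the Control Nid2 bar.

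Each alpha chain had its own set of classes. Lama5 (GRCm38 chromosome 2, 180176373 to 180225859, minus strand) encodes the main alpha chain of mature epithelial basement membranes. It was highest in endocrine progenitors, the cells that leave the trunk to form islets, at 86.0 CPM (79.0 to 93.3) in Null and 68.0 CPM (63.4 to 72.9) in Control. Ductal or trunk cells followed with 71.2 CPM (68.8 to 73.6) in Null and 43.4 CPM (41.7 to 45.1) in Control. Mesothelial cells had 39.1 CPM (35.2 to 43.3) in Null and 41.1 CPM (37.6 to 44.8) in Control, an interval that overlapped the ductal one in the Control library only. Lama5 was also present in acinar cells, at 24.0 CPM in Null and 18.1 CPM in Control, and in endocrine cells, at 15.4 CPM in Null and 18.4 CPM in Control. In mesenchymal cells its 2.78 CPM in Null and 5.80 CPM in Control were no higher than the leukocyte levels of 4.39 CPM in Null and 7.49 CPM in Control. The intervals of these classes overlapped in both libraries.

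Lama1 (chromosome 17, 67697259 to 67822647, plus strand) encodes the alpha chain of the first embryonic epithelial laminin. It was highest in ductal or trunk cells, at 22.0 CPM (20.6 to 23.3) in Null and 17.6 CPM (16.6 to 18.7) in Control. In the Control library mesenchymal cells matched them at 17.5 CPM (15.9 to 19.3), whereas in the Null library mesenchymal cells had 8.61 CPM (6.98 to 10.5). Leukocytes had 0.199 CPM of Lama1 in Null and 2.32 CPM in Control, so the mesenchymal level was above that of leukocytes in both libraries. Acinar cells, which arise from the tips of the same epithelium, had little, at 0.898 CPM in Null and 1.74 CPM in Control.

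Lama4 (chromosome 10, 38965515 to 39110188, plus strand) encodes the alpha chain typical of blood vessels and mesenchyme. It was highest in endothelial cells, at 202.0 CPM (186.8 to 218.1) in Null and 104.0 CPM (93.0 to 115.9) in Control. Neural or glial cells were second, at 144.5 CPM (126.5 to 164.3) in Null and 58.2 CPM (45.5 to 73.5) in Control. Mesenchymal cells had 78.4 CPM (73.3 to 83.8) in Null and 47.8 CPM (45.0 to 50.7) in Control, which overlapped the neural or glial interval in the Control library only. Epithelial classes had at most 5.77 CPM in Null and 2.67 CPM in Control.

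Lama2 (chromosome 10, 26980036 to 27619758, minus strand) encodes the alpha chain of muscle and peripheral nerve laminin. It was the rarest of the alpha chains followed here, with 644 Null and 271 Control UMIs in named classes. In the Null library it was highest in the Actg2 and Myh11 cluster, at 61.3 CPM (51.9 to 71.9); with only 43 Control cells there, no Control level is given. Neural or glial cells had 26.7 CPM (19.3 to 35.9) in Null and 15.6 CPM (9.38 to 24.3) in Control. Mesenchymal cells had 20.6 CPM (18.1 to 23.5) in Null and 4.75 CPM (3.89 to 5.73) in Control, and mesothelial cells had 18.6 CPM (16.0 to 21.6) in Null and 9.33 CPM (7.71 to 11.2) in Control. In Null the last 3 of these classes overlapped in neighbouring pairs, while in Control the mesothelial level stood above the mesenchymal one. Epithelial classes were at or below 0.210 CPM in Null and 0.135 CPM in Control. Gm48084, on the opposite strand, shares exon bases with Lama2, as Gm48682 does with Nid1 and Rtraf with Nid2. No source used here says whether counting used strand, so a part of these UMIs could be the partner's.

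**Figure D2:**
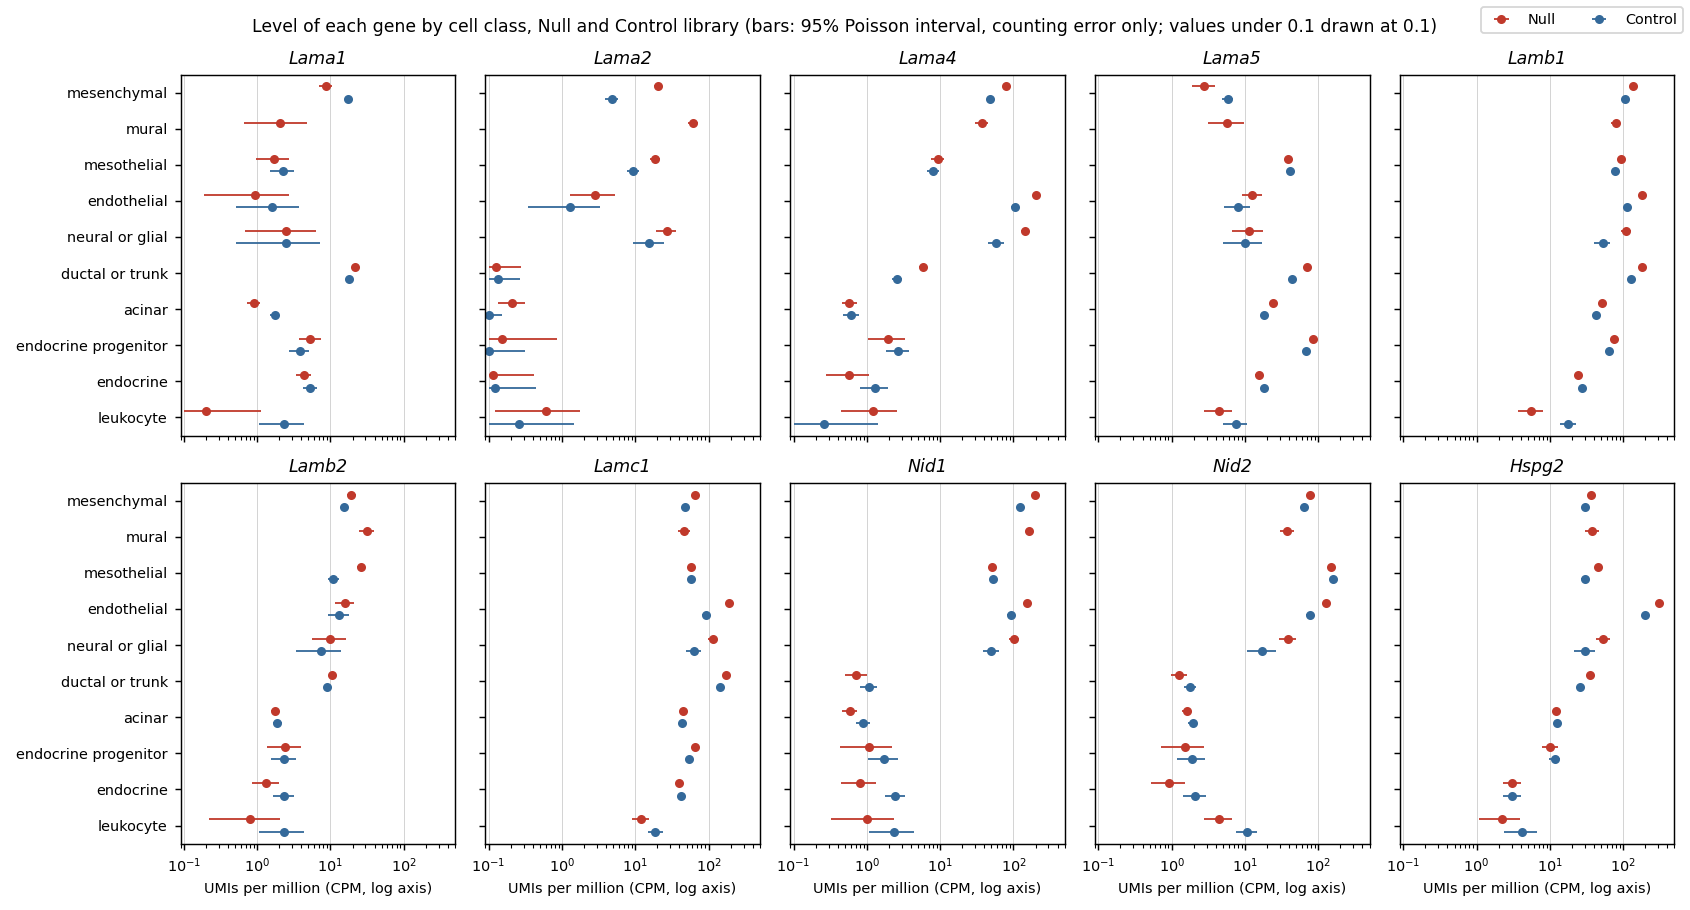
Level of each gene (horizontal log axis, CPM in the class) in each cell class, 1 panel per gene, with red points for Null, blue points for Control and bars for the 95% Poisson interval, which covers counting error only; levels under 0.1 CPM are drawn at 0.1. Lama5 is highest in the endocrine progenitor and ductal or trunk rows. Lama4, Nid1 and Nid2 sit in the upper, non-epithelial rows, and Hspg2 peaks in endothelial cells at 304.7 CPM in Null and 199.1 CPM in Control.

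The starts of Lama5, the main epithelial alpha chain gene, and of Lama2, which epithelial cells lacked, differ in sequence. RefSeq promoters (GRCm38.p6) were at hand for 6 of the 10 genes, and the 250 bases before the start of Lama5 at chr2:180225860-180226109 (minus strand) and of Lama2 at chr10:27616943-27617192 (minus strand) are shown for that contrast. Capitals mark the GC box GGGCGG or its reverse complement CCGCCC, and the CCAAT box CCAAT or ATTGG.
Lama5: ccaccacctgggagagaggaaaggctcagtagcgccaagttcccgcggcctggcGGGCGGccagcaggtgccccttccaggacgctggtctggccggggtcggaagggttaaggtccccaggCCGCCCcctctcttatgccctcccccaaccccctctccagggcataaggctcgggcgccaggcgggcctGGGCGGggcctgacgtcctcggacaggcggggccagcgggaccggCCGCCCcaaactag
Lama2: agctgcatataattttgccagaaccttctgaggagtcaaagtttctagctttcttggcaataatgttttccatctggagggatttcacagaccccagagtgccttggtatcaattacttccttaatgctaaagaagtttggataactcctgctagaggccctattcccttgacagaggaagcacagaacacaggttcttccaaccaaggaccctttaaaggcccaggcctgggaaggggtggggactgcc
The Lama5 window held 4 GC boxes, 19 CG pairs and 72.4% G or C, and the Lama2 window held no GC box, no CG pair and 47.2% G or C. Over 32851 promoter windows of the same length, 32.7% held a GC box and 33.8% a CCAAT box on either strand, and the medians were 6 CG pairs and 52.4% G or C. The TATA box TATAAA, present in 12.4% of all windows, and the AP-1 letters TGANTCA, present in 6.75%, were in neither. The Lama2 window lies inside the gene span that GENCODE gives, since RefSeq places the start downstream of it, so it may not be the start these cells used. A match is a string of letters, not a bound site. Other genes of the set did not follow this contrast. The window of Nid1, nearly absent from epithelium, held 1 GC box, 16 CG pairs and 64.4% G or C. That of Hspg2, highest in endothelial cells, held 5 GC boxes, 20 CG pairs and 70% G or C. The windows of Lamb1 and Lamb2 are given below, and a link to epithelial use was not tested.

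Within each class the UMIs of Lama1, Lama2, Lama4 and Lama5 were set against each other, and their sum is called alpha chain UMIs here. The 3' assay counts each molecule by its end whatever its length, but whether these genes are captured alike was not tested. As said above, some Lama2 UMIs could be those of Gm48084. Lama3, another alpha chain, is left out of the sum. It had 22 Null and 5 Control UMIs in endothelial cells and 33 Null and 19 Control UMIs in mesothelial cells. Endothelial alpha chain UMIs were 92.5% Lama4 (90.3 to 94.3, exact Clopper-Pearson) in Null and 90.6% (87.1 to 93.4) in Control. Ductal or trunk UMIs were 71.9% Lama5 and 22.2% Lama1 in Null, against 68.0% Lama5 and 27.7% Lama1 in Control. Lama5 made up 93.4% of acinar alpha chain UMIs in Null and 88.2% in Control, and 92.1% of those of endocrine progenitors in Null and 91.3% in Control. Mesothelial cells mixed epithelial and mesenchymal types, with 57.0% Lama5 and 27.1% Lama2 in Null and 67.7% Lama5 and 15.4% Lama2 in Control. The mesenchymal mix differed most in its minor chains. Lama4 was 71.0% (68.4 to 73.5) in Null and 63.0% (60.7 to 65.3) in Control. Lama2 was 18.7% (16.5 to 21.0) in Null and 6.26% (5.16 to 7.50) in Control, and Lama1 was 7.80% (6.36 to 9.44) in Null and 23.1% (21.1 to 25.2) in Control.

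**Figure D3:**
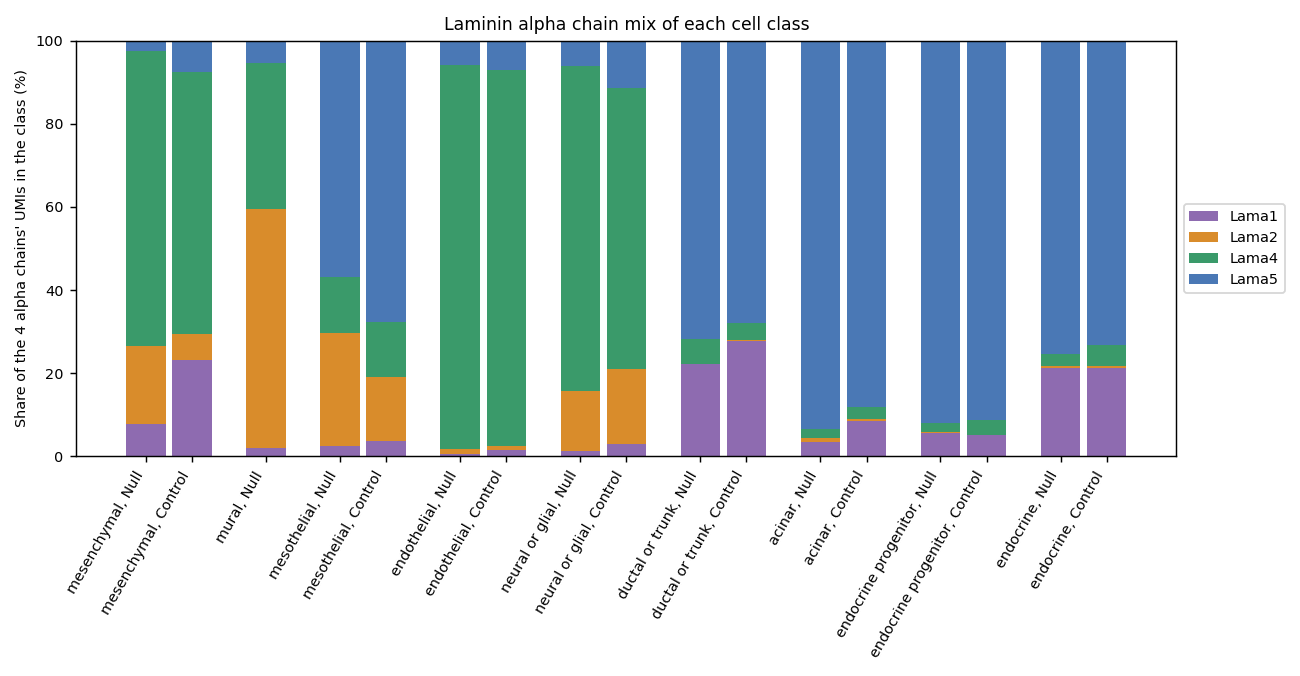
Share of Lama1, Lama2, Lama4 and Lama5 in the summed UMIs of these genes in each class (vertical axis, percent), with the Null bar left of the Control bar. Blue Lama5 fills the epithelial bars and green Lama4 the endothelial ones, and the Null bar labelled mural, the Actg2 and Myh11 cluster, with 57.7% Lama2, has no Control partner because that cluster had 43 Control cells.

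Lamb1 and Lamc1, the common beta and gamma chains that most laminins share, were found in every class. Lamb1 (chromosome 12, 31265234 to 31329644, plus strand) stood at 178.6 CPM (164.3 to 193.7) in Null and 113.8 CPM (102.4 to 126.3) in Control endothelial cells. It stood at 178.1 CPM (174.4 to 182.0) in Null and 126.2 CPM (123.3 to 129.1) in Control ductal or trunk cells. The intervals of both classes overlapped within each library. Mesenchymal cells had 136.7 CPM in Null and 106.7 CPM in Control, mesothelial cells 92.1 CPM in Null and 77.1 CPM in Control, and acinar cells 51.4 CPM in Null and 43.0 CPM in Control. Lamc1 (chromosome 1, 153218922 to 153332786, minus strand) stood at 174.8 CPM (171.1 to 178.6) in Null and 143.0 CPM (140.0 to 146.1) in Control ductal or trunk cells. Endothelial cells had 190.3 CPM (175.6 to 205.9) in Null and 92.2 CPM (81.9 to 103.5) in Control, so these classes could not be ordered in Null. Outside leukocytes, endocrine cells had the lowest levels of both chains, though for Lamc1 in Control their interval overlapped that of acinar cells: 24.2 CPM of Lamb1 in Null and 27.0 CPM in Control, and 39.0 CPM of Lamc1 in Null and 42.5 CPM in Control. Leukocytes had 5.58 CPM of Lamb1 and 11.97 CPM of Lamc1 in Null, and 17.8 CPM of Lamb1 and 18.8 CPM of Lamc1 in Control.

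Lamb2 (chromosome 9, 108479736 to 108490530, plus strand) encodes the beta chain known from the kidney filter and the nerve-muscle junction. It was scarcer and leaned to non-epithelial cells. It was highest in the Actg2 and Myh11 cluster at 31.0 CPM (24.5 to 38.9) and mesothelial cells at 26.0 CPM (22.9 to 29.5) in Null, and in mesenchymal cells at 15.3 CPM (13.7 to 16.99) in Control, where the first 5 classes overlapped neighbour by neighbour. Lamb2 gave 28.3% of the summed Lamb1 and Lamb2 UMIs in Null cells of the Actg2 and Myh11 cluster. Its share was 22.0% in Null and 12.5% in Control mesothelial cells, and 5.49% in Null and 6.56% in Control ductal or trunk cells. The windows before the beta chain starts, Lamb1 at chr12:31265043-31265292 (plus strand) and Lamb2 at chr9:108479612-108479861 (plus strand), are shown as the pair of beta chain genes; capitals mark the same letters as above.
Lamb1: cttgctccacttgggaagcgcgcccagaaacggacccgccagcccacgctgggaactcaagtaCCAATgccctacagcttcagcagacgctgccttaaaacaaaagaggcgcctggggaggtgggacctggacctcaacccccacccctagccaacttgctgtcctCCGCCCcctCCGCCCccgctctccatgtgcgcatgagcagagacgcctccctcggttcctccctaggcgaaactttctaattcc
Lamb2: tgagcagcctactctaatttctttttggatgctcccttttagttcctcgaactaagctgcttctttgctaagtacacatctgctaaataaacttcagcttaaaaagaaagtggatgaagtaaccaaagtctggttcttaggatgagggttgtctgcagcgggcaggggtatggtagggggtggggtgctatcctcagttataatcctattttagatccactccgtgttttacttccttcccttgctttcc
The Lamb1 window held 2 GC boxes, 1 CCAAT box and 14 CG pairs, and the Lamb2 window none of the 4 motifs and 3 CG pairs. Parts of both windows lie inside the gene spans that GENCODE gives.

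Nidogen RNA was found almost wholly outside the epithelium, whose laminin they bind. Nid1 (chromosome 13, 13437551 to 13512269, plus strand) was highest in mesenchymal cells, at 194.8 CPM (186.6 to 203.1) in Null and 121.5 CPM (117.0 to 126.1) in Control. In Null the Actg2 and Myh11 cluster followed at 163.0 CPM (147.4 to 179.8), and then endothelial cells at 155.4 CPM (142.2 to 169.6) in Null and 92.2 CPM (81.9 to 103.5) in Control. Nid2 (chromosome 14, 19751265 to 19811787, plus strand) was highest in mesothelial cells, at 149.5 CPM (141.8 to 157.5) in Null and 160.9 CPM (153.9 to 168.0) in Control. Endothelial cells followed at 126.5 CPM in Null and 78.2 CPM in Control, then mesenchymal cells at 76.1 CPM in Null and 63.9 CPM in Control. Ductal or trunk cells, with the highest Lamc1 of the epithelium, had 0.716 CPM of Nid1 and 1.26 CPM of Nid2 in Null, and 1.06 CPM of Nid1 and 1.80 CPM of Nid2 in Control. These were below the leukocyte levels, which were 0.997 CPM of Nid1 and 4.39 CPM of Nid2 in Null and 2.32 CPM of Nid1 and 10.6 CPM of Nid2 in Control. For Nid1 the intervals overlapped in both libraries, and for Nid2 in neither. Of all nidogen UMIs in a class, Nid2 made up 74.5% in Null and 75.4% in Control mesothelial cells, and 28.1% in Null and 34.5% in Control mesenchymal cells.

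Hspg2 (chromosome 4, 137468769 to 137570630, plus strand) was an endothelial gene first, at 304.7 CPM (286.0 to 324.3) in Null and 199.1 CPM (183.8 to 215.3) in Control. The next class, neural or glial cells, was 5.78-fold lower than endothelial cells in Null and 6.56-fold lower in Control. Mesothelial cells had 45.5 CPM in Null and 29.9 CPM in Control, mesenchymal cells 36.5 CPM in Null and 29.7 CPM in Control, and ductal or trunk cells 35.5 CPM in Null and 25.7 CPM in Control, so perlecan RNA, unlike that of the nidogens, was also found in the epithelium. Endocrine cells, at 3.05 CPM in Null and 3.06 CPM in Control, were close to the leukocyte levels of 2.19 CPM in Null and 4.13 CPM in Control.

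Single cells with a full set of chains, from the followed genes only, were counted after each cell was thinned to 2000 UMIs. This was done because the libraries differ in depth. Shallower cells were left out: 35 Null and 31 Control endothelial, 20 Null and 12 Control ductal or trunk, 42 Null and 21 Control neural or glial, 13 Null and 43 Control leukocytes, and 11 acinar cells in each library. An alpha chain, a beta chain and Lamc1 were found together in 14 of 148 Null endothelial cells, 9.46% (5.27 to 15.4), and 4 of 233 Control endothelial cells, 1.72% (0.470 to 4.34). In ductal or trunk cells the set was found in 51 of 1746 Null cells, 2.92% (2.18 to 3.82), and 35 of 3080 Control cells, 1.14% (0.793 to 1.58). Neural or glial cells held it in 4 of 105 in Null, 3.81% (1.05 to 9.47), and 1 of 121 in Control, 0.826% (0.0209 to 4.52). No leukocyte of 259 in Null or 300 in Control held it, which at 3 counts allows a share of up to 1.16% in Null and 1% in Control; the exact upper bounds are 1.41% in Null and 1.22% in Control. Without thinning, 80.6% of Null and 51.7% of Control ductal or trunk cells (median 26619 UMIs in Null and 18958.5 in Control) and 1.10% of Null and 1.46% of Control leukocytes (median 17498 UMIs in Null and 10734 in Control) held a set. Lama5 was the usual alpha chain of the thinned ductal sets, in 36 Null and 26 Control cells, and Lama4 of the endothelial sets, in 11 Null and 4 Control cells. Acinar cells held the set in 1 of 2452 Null and 2 of 3218 Control cells after thinning. Without thinning 48.3% of Null and 24.8% of Control acinar cells held it (median 47861 UMIs in Null and 31751 in Control). Unthinned endothelial shares were 55.2% in Null and 30.3% in Control, and mesenchymal shares 44.0% in Null and 14.1% in Control. All of these lay below the unthinned ductal or trunk share of the same library, but endothelial and mesenchymal cells were also shallower. Median UMIs were 18052 in Null and 12950 in Control endothelial cells, and 18371.5 in Null and 9698.5 in Control mesenchymal cells. After thinning the endothelial share was above the ductal or trunk share in Null, and in Control their intervals overlapped. Thinned mesenchymal cells held the set in 9 of 611 in Null, 1.47%, and 8 of 2284 in Control, 0.350%.

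Over 37 clusters of at least 100 cells, both libraries summed, levels of some of the genes went together. Nid1 and Nid2 had a Pearson r of 0.917 on the log2(CPM + 1) scale, Lama4 and Nid1 0.905, and Lama2 with Nid1 and Nid2 0.871 and 0.874. Lamb1 went with Hspg2 at 0.827 and with Lamc1 at 0.761, whereas Lama5 ran against Lama4 at -0.538 and Nid1 at -0.522. These points share libraries, depth and free RNA and are given as description. Of 13625 features, the nearest to Nid1 were Lpar4 (0.977), Dchs1 (0.975) and Hoxb4 (0.974), and to Nid2 Hoxb7 (0.963), Pmp22 and Cavin1 (0.961 each). Lama2 was nearest to Lsamp (0.950), Nr2f1 (0.949) and Col14a1 (0.944), Lama4 to Pakap and Ldb2 (0.934 each) and Bgn (0.929), and Lama5 to 2310030G06Rik (0.903), Celsr1 (0.894) and Ppl (0.890). Lamb2 was nearest to Chst14 (0.948), Kirrel (0.943) and Sparc (0.932), Hspg2 to Shroom4 (0.910), Pls3 (0.897) and Fam171a2 (0.891), and Lamb1 to Amotl1 (0.904), Mex3a (0.861) and Msantd3 (0.860). Lamc1 was nearest to Tinagl1 (0.874), another basement membrane gene, Sestd1 (0.873) and Actn4 (0.835), and Lama1 to D630003M21Rik (0.854), Tenm4 (0.802) and St3gal4 (0.801).

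The genotype comparison asks what the basement membrane genes of each class look like when Fgf9, a growth factor that signals from epithelium and mesothelium to mesenchyme, is missing. In mesenchymal cells the alpha chains went in different directions. Lama2 had 230 UMIs and 20.6 CPM in Null and 108 UMIs and 4.75 CPM in Control, a log2 ratio of 2.12 (1.78 to 2.46). Lama1 had 96 UMIs and 8.61 CPM in Null and 399 UMIs and 17.5 CPM in Control, a log2 ratio of -1.03 (-1.36 to -0.70). Of the 10 genes, 8 were higher and 2 lower in Null, with a median log2 ratio of 0.35 against 0.01 over all 14449 features measured. Lama2 was at least 2-fold higher in Null, where 3.28% of all features were, and Lama1 and Lama5 at least 2-fold lower, where 6.73% of all features were. Lama5, at -1.06 (-1.67 to -0.49), had mesenchymal levels no higher than those of leukocytes. Nid1 stood at 0.68 (0.60 to 0.76), Lama4 at 0.71 (0.58 to 0.84), Lamc1 at 0.49 and Lamb1 at 0.36. Lama1 and Lama5 both sat close to the 2-fold line: 0 of the 10 genes were 2-fold lower when every cell was weighted alike, and 1 was when the Actg2 and Myh11 cluster was counted with this class.

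Mesenchymal cells of both libraries fell largely into different subclusters, so these ratios compare different cells as well as different genotypes. Control cells filled m0 (454 cells, with Barx1 among its leading genes), m1 (396 cells, with Tlx1 among its leading genes), m5, m6 and m9, each with under 20 Null cells, while Null cells filled m4 (312 cells) and m10 (109 cells), each with under 20 Control cells. In the subclusters that held both, other than m3, Lama2 was again higher in Null. It stood at 21.2 CPM (16.0 to 27.7) in Null and 4.12 CPM (2.25 to 6.91) in Control in m2. It stood at 12.03 CPM (7.71 to 17.9) in Null and 2.18 CPM (0.450 to 6.38) in Control in m7, and 18.8 CPM (12.04 to 28.0) in Null and 5.07 CPM (2.32 to 9.62) in Control in m8. Lama1 was lower in Null in m2, at 6.30 CPM (3.60 to 10.2) against 18.2 CPM (14.0 to 23.4) in Control, but not beyond counting error in m7, at 9.03 CPM in Null and 9.47 CPM in Control, or in m8, at 9.39 CPM in Null and 14.6 CPM in Control. In m3, which had 22 Null cells, neither gene had a Null UMI. Subclusters m2, m4, m7, m8 and m10 also hold cells of the Actg2 and Myh11 cluster. Mesenchymal marker genes summed to 9710.4 CPM in Null and 6287.3 CPM in Control, and epithelial markers to 162.4 CPM in Null and 536.5 CPM in Control; their part in the ratios was not tested.

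**Figure D4:**
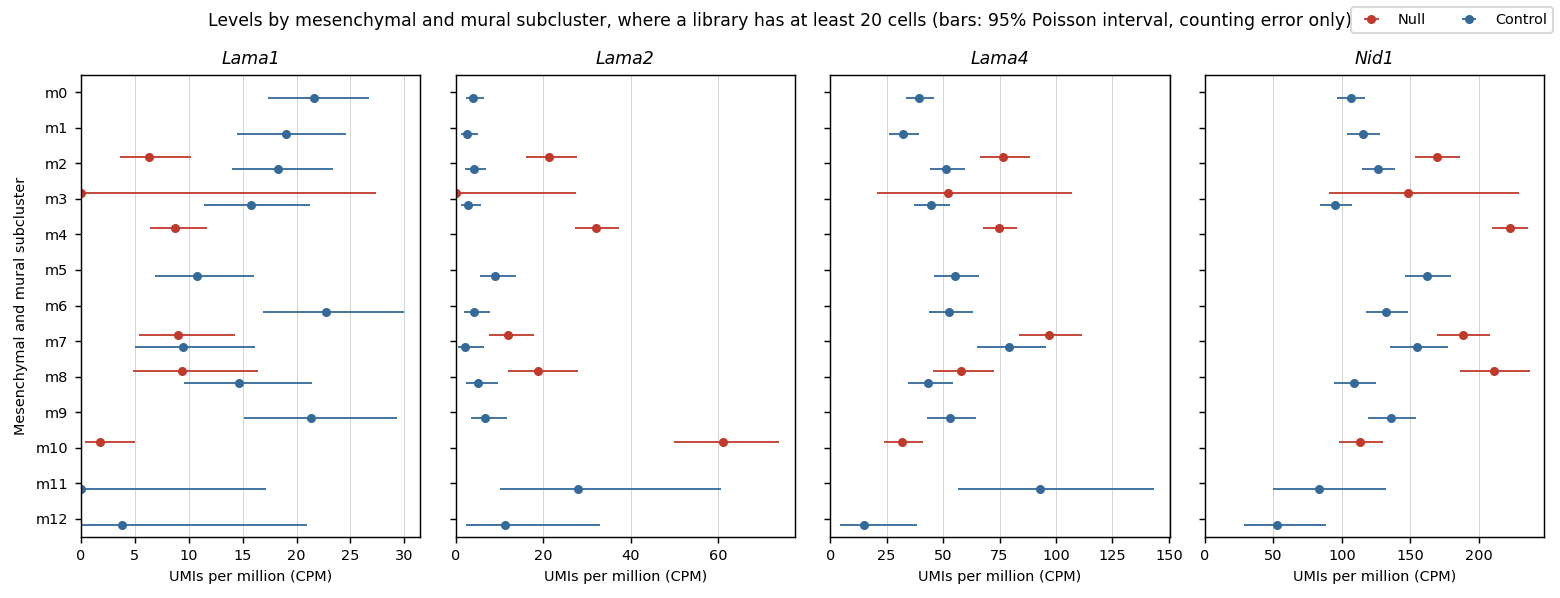
Level (horizontal axis, CPM) of Lama1, Lama2, Lama4 and Nid1 in each subcluster of the mesenchymal class and the Actg2 and Myh11 cluster, for each library with at least 20 cells there, with red Null and blue Control points and 95% Poisson bars for counting error. Lama2 stands at 12.03 CPM or more in the Null points other than m3, which has 22 cells and no UMI, while most Control points lie under 10 CPM; many rows have a point for 1 library only.

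Other basement membrane genes of mesenchymal cells were also split. Of 36 listed genes 33 were measured, 20 higher and 13 lower in Null, with 5 at least 2-fold higher and 8 at least 2-fold lower. Of all features, 50.8% were higher in Null, 3.28% at least 2-fold higher and 6.73% at least 2-fold lower. Collagens and their crosslinking enzymes were higher in 7 of 8, led by Col15a1 at 24.8 CPM in Null and 3.56 CPM in Control, a log2 ratio of 2.80 (2.44 to 3.18), and by Col4a6, a collagen IV chain, at 2.5999 (2.02 to 3.22). Smoc1, a secreted calcium-binding matrix protein, was lowest at -1.89 (-2.51 to -1.32), and Frem2, of the Fraser complex under epithelia, next at -1.76 (-2.29 to -1.25).

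**Figure D5:**
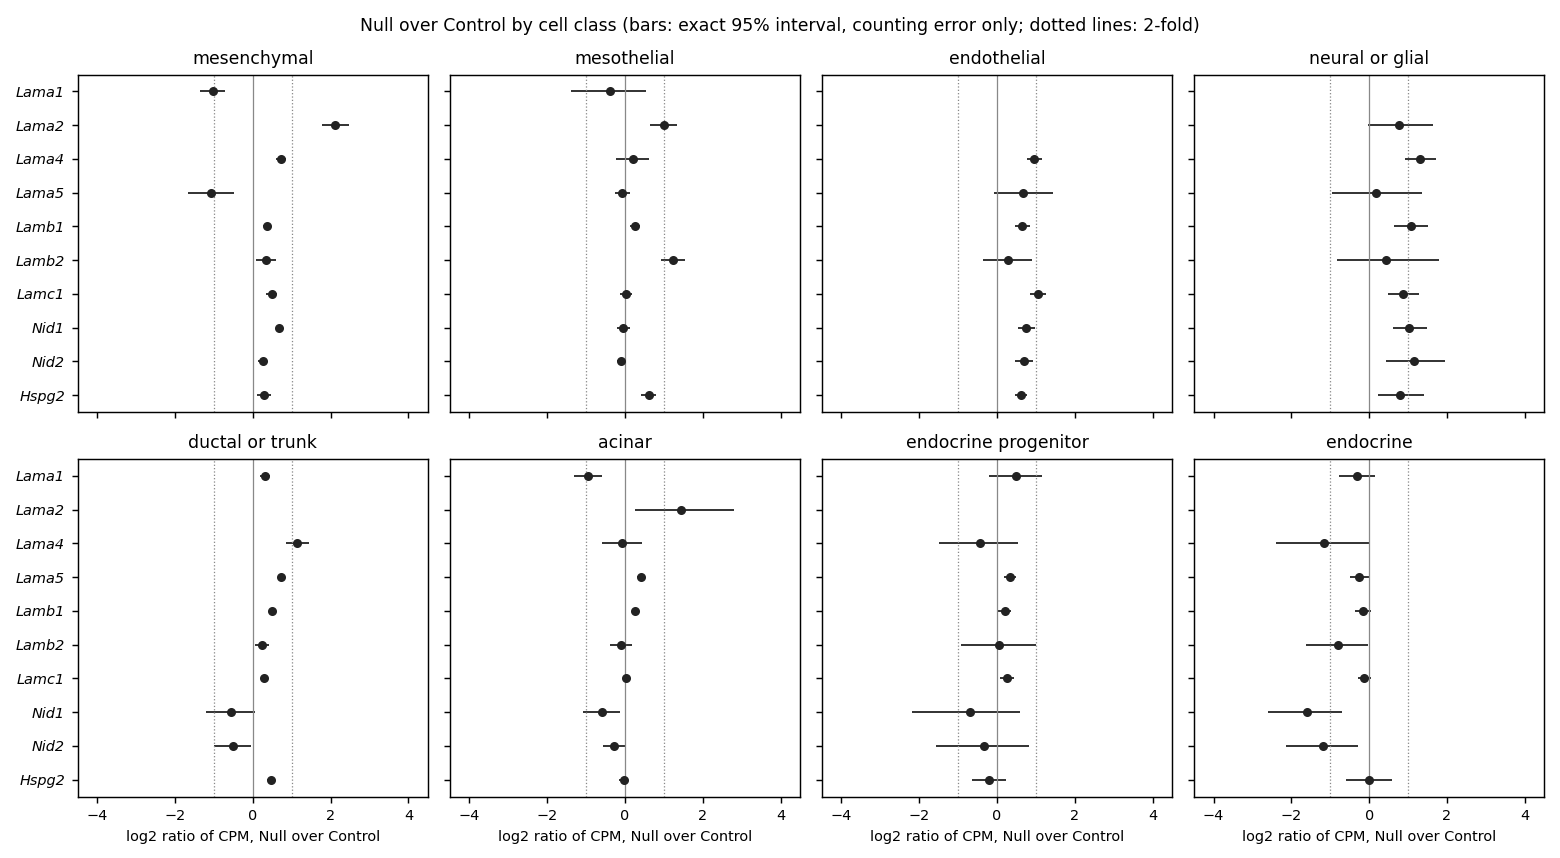
Log2 ratio of Null over Control CPM (horizontal axis) for each gene with at least 20 UMIs, 1 panel per class, with exact 95% bars for counting error and dotted lines at 2-fold. All points lie right of 0 in the endothelial and neural or glial panels and left of 0 in the endocrine panel, where Hspg2 at -0.01 is nearly on the line; Lama2 in mesenchymal cells, at 2.12, is the point farthest right.

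Mesothelial cells, a known source of Fgf9 at the organ surface, differed little in Nid2, with a log2 ratio of -0.11 (-0.21 to -0.01), and Lama5, with -0.07 (-0.27 to 0.13), and more in minor chains. Lamb2 had 26.0 CPM (22.9 to 29.5) in Null and 11 CPM (9.24 to 12.996) in Control, a log2 ratio of 1.24 (0.94 to 1.56), Lama2 stood just under 2-fold at 0.996 (0.65 to 1.35), and Hspg2 at 0.61 (0.40 to 0.81). In all, 6 genes were higher and 4 lower with a median of 0.12 against -0.03 over all features. Of all features, 46.9% were higher in Null. Of the 10 genes, 1 was at least 2-fold higher, where 6.29% of all features were, and 0 at least 2-fold lower, where 5.26% were. Subclusters again divided by library, with t1 (198 cells) and t3 (143 cells) mostly Null and t0 (278 cells) and t2 (144 cells) mostly Control. In the mixed subcluster t6 Lamb2 had 26.3 CPM (17.3 to 38.2) in Null and 11.2 CPM (6.64 to 17.7) in Control, and in t4 19.0 CPM (10.6 to 31.3) in Null and 13.6 CPM (8.89 to 19.9) in Control. Mesenchymal markers summed to 9148.3 CPM in Null and 3095.6 CPM in Control mesothelial cells, 9 of 11 of them higher in Null, while mesothelial markers summed to 1609.5 CPM in Null and 1635.8 CPM in Control; their part in the Lamb2 and Lama2 ratios was not tested. Col4a6 at 2.16 (1.99 to 2.35) and Frem1 at 1.76 (1.25 to 2.29) led the other basement membrane genes, 23 of 34 of which were higher in Null, and the integrin Itga7, a laminin receptor, at -2.50 (-3.27 to -1.80) and Smoc1 at -1.38 (-2.03 to -0.78) were lowest.

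Endothelial cells had higher levels of all 8 measured genes in Null. Lamc1 had 617 UMIs and 190.3 CPM in Null and 290 UMIs and 92.2 CPM in Control, a log2 ratio of 1.05 (0.84 to 1.25), and Lama4 stood just under 2-fold at 0.96 (0.76 to 1.15). Nid1 at 0.75 (0.54 to 0.97), Nid2 at 0.69 (0.46 to 0.93), Lamb1 at 0.65 (0.46 to 0.84) and Hspg2 at 0.61 (0.47 to 0.76) followed, and Lama5 and Lamb2 had intervals that reached 0. The median was 0.68, against 0.10 over all 10689 features, 60.2% of which were higher in Null. Only Lamc1 was at least 2-fold higher, where 2.47% of all features were, and 0 genes were at least 2-fold lower, where 2.72% were; Lamc1 was under 2-fold when ratios were centred on that overall median, and after free RNA was subtracted with a profile that included the unnamed cluster of few UMIs. Endothelial markers summed to 4928.0 CPM in Null and 4193.1 CPM in Control, and mesenchymal markers to 46.6 CPM in Null, with Prrx1 and Twist1 at 0, and 113.2 CPM in Control. Of the other basement membrane genes 16 of 24 were higher in Null. Among those with at least 100 UMIs in the class, the integrins Itgb1 at 0.77 (0.68 to 0.86) and Itga2 at 0.64 (0.40 to 0.89) were highest. Tinagl1 at -0.14 (-0.35 to 0.07) and Npnt, nephronectin, at -0.07 (-0.58 to 0.45) were lowest of these.

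Neural or glial cells, with 147 Null and 142 Control cells, had all 9 measured genes higher in Null, with intervals of Lama2, Lama5 and Lamb2 that reached 0. Lama4 stood at 144.5 CPM (126.5 to 164.3) in Null and 58.2 CPM (45.5 to 73.5) in Control, a log2 ratio of 1.31 (0.92 to 1.72), and Nid2 at 1.16 (0.42 to 1.95), Lamb1 at 1.06 (0.64 to 1.4996) and Nid1 at 1.03 (0.60 to 1.48) were also past 2-fold, with Lamc1 just under it at 0.86. These 4 genes compare with 5.84% of all features at least 2-fold higher, and 0 with 2.86% at least 2-fold lower, and the median of the 9 genes was 0.86 against 0.08 over all features, 57.0% of which were higher in Null. Centred on the median of all features, 2 of them were past 2-fold. Free RNA was highest in this class, and mesenchymal markers summed to 316.2 CPM in Null, with 9 of 11 higher in Null, and 190.3 CPM in Control; their part was not tested. Among other genes with at least 100 UMIs in the class, the main collagen IV chains were highest. Col4a1 stood at 1.36 (1.11 to 1.62) and Col4a2 at 1.15 (0.81 to 1.49). Hmcn1 at -0.69 (-1.29 to -0.10) was lowest of these, with the laminin receptor Dag1 next at 0.30 (-0.05 to 0.66).

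Ductal or trunk cells had modestly more of their own laminin in Null. Lama5 stood at 71.2 CPM in Null and 43.4 CPM in Control, a log2 ratio of 0.71 (0.64 to 0.79), Lamb1 at 0.50 (0.45 to 0.54), Hspg2 at 0.47 (0.37 to 0.57), Lama1 at 0.32 (0.19 to 0.44) and Lamc1 at 0.29 (0.25 to 0.33). In all 4 subclusters of the class Lama5 was higher in Null, from 88.0 CPM in Null and 57.2 CPM in Control in e0 to 39.7 CPM in Null and 35.2 CPM in Control in e3, where the intervals overlapped. Lama4 was the only gene at least 2-fold higher, with 5.77 CPM in Null and 2.61 CPM in Control, a log2 ratio of 1.15 (0.86 to 1.44), where 2.35% of all features were, and 0 were at least 2-fold lower, where 2.12% were; Lama4 was under 2-fold after free RNA was subtracted or clusters were weighted alike. With 7 of 9 genes higher the median was 0.32, against 0.09 over all features, 64.0% of which were higher in Null. Of the other basement membrane genes 28 of 31 were higher. Among those with at least 100 UMIs in the class, Itga1, a collagen and laminin integrin, was highest at 1.47 (1.08 to 1.88). Tinagl1 was next at 0.76 (0.73 to 0.80). Itga6, a laminin integrin of epithelium, at -0.19 (-0.26 to -0.13) and Fras1 at 0.04 (-0.04 to 0.12) were lowest of these.

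Acinar cells and the endocrine lineage differed little in the chains they make in quantity. In acinar cells Lama5 stood at 0.41 (0.32 to 0.49), Lamb1 at 0.26 (0.20 to 0.31) and Lamc1 at 0.04 (-0.02 to 0.10), and Lama1 just under 2-fold lower at -0.95 (-1.31 to -0.60). Lama2, with 25 Null and 8 Control UMIs, was the 1 gene at least 2-fold higher, where 1.92% of all features were, and 0 were at least 2-fold lower, where 3.01% were. With 100 UMIs required, or after thinning, 0 were 2-fold higher. Among other genes with at least 100 UMIs in the class, Itgb1 at 0.34 and Col4a5 at 0.32 were highest. Egflam at -0.87 and Sparc at -0.60 were lowest of these. Endocrine progenitors had Lama5 at 0.34 (0.18 to 0.50), Lamc1 at 0.26 (0.08 to 0.44) and Lamb1 at 0.20 (0.03 to 0.37). They had 0 genes past 2-fold, where 1.1% of all features were higher and 2.71% lower. Among their other genes with at least 100 UMIs, Smoc2 at 0.43 and Col18a1 at 0.38 were highest. Frem2 at -0.57 and Fras1 at -0.52 were lowest of these.

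In endocrine cells the log2 ratio was below 0 for all 9 measured genes, though for Hspg2 it was -0.01 and 4 of the 9 intervals reached 0. The median was -0.30 against 0.00 over all features, 50.7% of which were higher in Null. Nid1 at -1.60 (-2.60 to -0.69), Nid2 at -1.18 (-2.13 to -0.28) and Lama4 at -1.16 (-2.41 to -0.01) were at least 2-fold lower, where 4.39% of all features were, and 0 were at least 2-fold higher, where 1.13% were. With at least 100 UMIs required or cells thinned to 2000 UMIs, 0 were, and Nid1 reversed to 2.49 after thinning. These 3 genes had only 10 to 16 Null and 21 to 40 Control UMIs. Their levels were near or below those of leukocytes, except that Lama4 had 1.29 CPM in Control endocrine cells and 0.258 CPM in Control leukocytes. Leukocytes also had all 5 of their measured genes lower in Null, with a median of -0.91 against -0.01 over all features. Of all leukocyte features, 49.1% were higher in Null. Free RNA was 6.70% of endocrine UMIs in Null and 19.4% in Control. Mesenchymal markers summed to 59.8 CPM in Null and 117.0 CPM in Control endocrine cells. The chains that endocrine cells did make differed less, with Lama5 at -0.26 (-0.51 to -0.02), Lamb1 at -0.16 (-0.36 to 0.03) and Lamc1 at -0.12 (-0.28 to 0.03). Of the other genes with at least 100 UMIs in the class, Sparc at -1.10 (-1.24 to -0.95) and Tinagl1 at -1.003 (-1.42 to -0.60) were lowest. Itga2 at 0.38 and Itgb1 at 0.31 were highest of these.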

How the data were processed

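UMI counts per gene and barcode were used as deposited; the authors produced these whole-number counts with Cell Ranger 6.1.1 on the mm10 build, with bcl2fastq and Seurat 3.2.3 also named, per the submitters' processing notes. The 10 genes, the other lists and the tests were chosen with earlier results of these data known. Barcodes with at least 1000 UMIs, 300 genes and under 15% mitochondrial UMIs were kept. Doublets were removed where either of a pair of Scrublet calls (scanpy 1.11.5) marked them: all kept barcodes gave 5.69% in Null and 0.769% in Control, where the automatic threshold failed and a score of 0.25 was used, and barcodes of at least 5000 UMIs gave 3.80% in Null and 9.07% in Control. Cells were clustered together without integration (2000 variable genes without basement membrane genes, 30 components, 15 neighbours, Leiden resolution 1). A cluster took the class whose markers stood highest, with at least 3 markers over 0.5 of their top level in 10% of cells; the thresholds for names came after a first look at the data, and 335 Null and 643 Control epithelial cells of a cluster with S100b among its leading genes stayed unnamed. CPM are UMIs per 1000000 of the class total without haemoglobin and mitochondrial genes. Levels carry exact Poisson, ratios exact conditional and shares Clopper-Pearson intervals of 95%, for counting error only. Ratios needed 100 cells in each library and 20 UMIs, levels 50 cells. For ratios, 0 counts were replaced by the floor, 3 counts. Free RNA profiles came from barcodes under 1000 UMIs, 6282 in Null but 244 in Control. The interval code was tested on simulated data. Gene coordinates are from GENCODE vM21 (GRCm38) and promoters from RefSeq. The text names the 10 genes always, the highest 2 and lowest 2 other basement membrane genes of a class with at least 100 UMIs there, and for each of the 10 the 3 features nearest in pattern (at least 500 UMIs).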

Additional observations from a re-analysis of the deposited data

How the results depend on the processing

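Counts of genes past 2-fold are small and several of the 10 genes sit near that line. Main counts are higher then lower in Null: mesenchymal 1 and 2, mesothelial 1 and 0, endothelial 1 and 0, ductal or trunk 1 and 0, acinar 1 and 0, endocrine progenitor 0 and 0, endocrine 0 and 3, neural or glial 4 and 0. Thinning to 2000 UMIs gave 2 higher in mesenchymal, 2 in mesothelial, 2 in endothelial and 0 in acinar cells, and 0 lower in endocrine cells, where Nid1 reversed to 2.49 on few UMIs. Weighting every cell alike gave 0 lower in mesenchymal, 2 higher in endothelial and 1 lower in acinar cells; weighting clusters alike gave 0 higher in ductal or trunk and 1 lower in endocrine progenitor cells. Subtracting free RNA gave 2 higher in mesothelial, 0 higher and 1 lower in ductal or trunk, 2 higher and 2 lower in acinar, 2 higher and 2 lower in endocrine progenitor and 1 higher in endocrine cells. With a profile that included the unnamed cluster of low UMI counts, an alternative added after the data were seen, it gave 0 higher in endothelial, 3 higher in acinar, and 1 higher and 1 lower in endocrine progenitor cells. The first doublet call only gave 2 higher and 1 lower in mesothelial, 3 higher in endothelial and 1 lower in acinar cells, and left no cluster named mesenchymal. Centring on the median of all features gave 2 higher in mesothelial, 0 in endothelial and 2 in neural or glial cells. Mesothelial cells had 2 higher with barcodes of 5000 or more UMIs and at resolution 2, and endothelial cells 2 higher without barcodes seen in both libraries. Requiring 100 UMIs gave 0 higher in acinar and 0 lower in endocrine cells, and counting the Actg2 and Myh11 cluster as mesenchymal, also added later, gave 1 lower in mesenchymal cells. Over all settings that gave a value, mesenchymal Lama2 stayed between 1.80 and 2.54 and Lama1 between -1.69 and -0.94. Not all ratios were as stable. After free RNA was subtracted, 24 of 65 ratios moved and 56 kept their sign. Under thinning 28 of 71 moved and 60 kept their sign. Mesenchymal Hspg2 ran from -0.23 to 0.39 and endothelial Lama5 from -0.18 to 0.97. At resolution 2, with 5000 or more UMIs or without barcodes seen in both libraries, 0 of 74 moved. The lead of a gene's highest class over the next, 20 values for 10 genes in 2 libraries, moved beyond counting error in 13 under thinning, 7 with clusters and 5 with cells weighted alike, and in 0 under the other settings run for it. It kept its sign in 17 of 20 under thinning, 18 under either weighting and at resolution 2, 19 with 5000 or more UMIs, with free RNA subtracted by either profile or with the Actg2 and Myh11 cluster counted as mesenchymal, and 12 of 13 with the first doublet call. No paired analysis was possible because each group is 1 library. Depth limits Lama2 in epithelium and single cells with a full chain set.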
